A study of Rattus norvegicus with 40 samples.

Results

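Transcripts of 10 genes, most of them switched on within minutes of a stimulus, were followed in livers of rats given the carcinogen diethylnitrosamine (DEN). They were Fos, Fosl2, Jun, Junb and Jund (subunits of the transcription factor AP-1), Egr1 and Atf3 (transcription factors of the early response), Ier2 and Ier3 (immediate early response genes) and Myc. The genes were chosen by symbol, and all 10 were found among the 17337 genes of the count files. They were looked at together because handling and tissue sampling can move them, so that their levels were read rat by rat. RNA-seq of bulk liver was available for 40 libraries from 24 male Fischer 344 rats, 4 rats in each of 8 groups. Rats were 7 weeks old at the first weekly intra-peritoneal injection of DEN (50 mg/kg). DEN-treated rats gave non-tumoral (NT) liver after 8 and 14 weeks of injections, and after 14 weeks of injections followed by 6 weeks without DEN (20 weeks). At 14 and 20 weeks, 2 tumor nodules of each of these rats were sequenced as well, so that NT liver and nodules of a time came from the same animals. Untreated rats of the same age (no DEN) gave liver at 8, 14 and 20 weeks, and the same 4 no DEN rats served NT liver and nodules of a time.

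Immediate early genes are transcribed without new protein synthesis when growth factors, cytokines or stress activate kinases such as ERK, JNK and p38, and their mRNA usually disappears again soon. AP-1 is a dimer of a Fos family and a Jun family protein (or of Jun with an ATF or Maf protein), and it drives genes of proliferation, survival and inflammation. In liver, Fos, Jun and Myc are known for their surge when hepatocytes leave quiescence after partial hepatectomy, Egr1 and Atf3 for their rise after injury, and Myc for driving ribosome production and growth in liver tumors.

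The sequence before the transcription start was taken from the RefSeq promoter set used here, which held 5 of the 10 genes. It is in build GRCr8, as opposed to the build rn6 used for counting. The 250 bases before the start are shown for Egr1 (chr18:26736828-26737077, plus strand) and Junb (chr19:40080876-40081125, plus strand), which rose in DEN-treated liver, and for Jund (chr16:18769772-18770021, minus strand) and Ier2 (chr19:40399123-40399372, plus strand), which were not called in the main analysis, so that the same window can be read side by side. Capitals mark the CArG box (the site of serum response factor), the cyclic AMP response element (CRE, TGACGTCA) and the AP-1 site (TGANTCA), each searched on both strands of the 250 bases before and the 50 bases after the start. None of these 3 motifs overlaps another in the windows shown.
Egr1: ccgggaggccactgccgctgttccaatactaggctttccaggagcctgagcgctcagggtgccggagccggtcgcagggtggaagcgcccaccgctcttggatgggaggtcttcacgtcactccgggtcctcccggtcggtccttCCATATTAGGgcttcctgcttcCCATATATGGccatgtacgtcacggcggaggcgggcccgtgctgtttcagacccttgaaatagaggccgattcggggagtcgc
Junb: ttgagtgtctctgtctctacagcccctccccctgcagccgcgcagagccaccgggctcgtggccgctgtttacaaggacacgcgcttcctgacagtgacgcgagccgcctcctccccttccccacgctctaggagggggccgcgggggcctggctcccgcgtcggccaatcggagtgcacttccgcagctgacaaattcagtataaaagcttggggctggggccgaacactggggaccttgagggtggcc
Jund: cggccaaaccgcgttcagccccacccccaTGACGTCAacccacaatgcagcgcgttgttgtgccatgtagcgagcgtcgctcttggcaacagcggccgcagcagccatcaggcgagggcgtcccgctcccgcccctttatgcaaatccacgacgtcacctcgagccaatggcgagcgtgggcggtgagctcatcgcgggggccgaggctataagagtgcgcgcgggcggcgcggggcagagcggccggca
Ier2: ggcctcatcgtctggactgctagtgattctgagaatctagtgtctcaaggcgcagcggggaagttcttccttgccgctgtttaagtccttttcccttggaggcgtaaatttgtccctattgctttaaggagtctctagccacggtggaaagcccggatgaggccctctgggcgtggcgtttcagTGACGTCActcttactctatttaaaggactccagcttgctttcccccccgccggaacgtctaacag
Egr1 held 2 CArG boxes, whose first bases lay 105 and 83 bases before the start, and 1.64% of 33469 RefSeq promoters of the same length held at least 1. Jund and Ier2 each held 1 CRE, which began 221 and 66 bases before the start, and 1.83% of the promoters held one. Junb and Fosl2 (not shown) held none of the 3 motifs, and an AP-1 site was present in 7.33% of all promoters and in none of these 5. Fos, Jun, Atf3, Ier3 and Myc were not analysed here in this respect.

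Counted read pairs ranged from 20528515 to 160622633 per library, and 39 of the libraries lay at or below 39355849. The deepest was the NT liver of rat H26 at 20 weeks. Levels are given as CPM (the count of a gene relative to all counted pairs of the library), scaled between libraries by the trimmed mean of M-values (TMM), and the level of a rat's nodules is the mean of its 2 libraries. Levels are compared between groups for the same gene only, since CPM is not corrected for transcript length. Fos and Fosl2 were the sparsest, with 2 to 182 and 1 to 379 counts per library (medians 33.5 and 51), and their values carry the largest counting error, whereas Jund had 1105 counts or more in each library. Groups were compared with the quasi-likelihood test of edgeR, in which p-values were adjusted by Benjamini-Hochberg over all genes tested, and a gene was called when its log2 fold change was at least 0.5 in size and its adjusted p at most 0.05. All no DEN rats carry the letter H in their number, while 4 of the 12 DEN-treated rats carry the letter F, the meaning of which is not given in the sources used here, so that the letter and DEN cannot be told apart in those rats.

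The libraries carried the markers of liver, with albumin at 10.4% to 19.0% of counted pairs, and markers of other cell types moved with DEN. The summed level of the 3 cholangiocyte markers measured (Krt19, Epcam and Sox9) was 15.9 to 23.3 CPM in the 12 no DEN libraries, 27.9 to 35.6 CPM in NT liver at 8 weeks, 36.2 to 86.9 CPM at 14 weeks and 33.2 to 52.9 CPM at 20 weeks. It was 54.4 to 150.2 CPM in nodules at 14 weeks and 46.6 to 212 CPM at 20 weeks, and none of the 3 was at 0 throughout. The 4 neutrophil markers summed to 1.34 to 5.85 CPM without DEN and to 8.91 to 18.8 CPM in NT liver at 8 weeks, 4.49 to 15.2 CPM at 14 weeks and 6.10 to 11.8 CPM at 20 weeks, and in nodules to 3.31 to 33.3 CPM and 3.46 to 18.9 CPM. The 5 T cell markers summed to 1.15 to 2.21 CPM without DEN and to 2.11 to 5.92 CPM in DEN-treated liver and nodules. Of 5 endothelial markers, 4 were called higher in DEN-treated tissue in each of the 5 comparisons with no DEN liver, of 5 Kupffer cell markers 1 or 2, and of 2 erythroid markers none. Both B cell markers tested were called at 8 weeks in NT liver and neither in the other 4. Of 5 hepatocyte markers, 3 (Ttr, Serpina1 and Alb) were called lower at 14 weeks in NT liver and in nodules, 2 (Ttr and Alb) in nodules at 20 weeks and none in NT liver at 8 or 20 weeks, while 1 (Apoa1) was called higher in each of the comparisons but that at 8 weeks. Of the 5 markers of stellate cells and fibroblasts, Col1a2 was listed at 0 in all libraries, and 2 or 3 of the 4 tested were called higher, with 1 lower in NT liver at 14 weeks. The part of cell composition in the values below was not tested, and in bulk tissue fewer cells of a type and less RNA per cell cannot be told apart.

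Compared with no DEN liver of the same age, 8 of the 10 genes rose in NT liver at 14 weeks, namely Fos, Fosl2, Jun, Junb, Egr1, Atf3, Ier3 and Myc, whereas 22.8% of all genes tested were called higher. The median log2 fold change of the 10 was 1.65, and that of all genes 0.02. At 20 weeks 7 of them rose in NT liver, the same set without Myc, beside 14.3% of all genes, with medians of 1.59 and 0.02. In nodules the 8 genes rose at both times, when 23.9% (14 weeks) and 23.6% (20 weeks) of all genes were called higher, and the medians of the 10 were 1.91 and 1.88. At 8 weeks only Atf3 and Myc passed the test in NT liver, beside 16.5% of all genes, with medians of 0.36 for the 10 and -0.01 for all genes. None of the 10 was called lower in a comparison of DEN-treated tissue with no DEN liver, where 5.21% (8 weeks), 9.85% (14 weeks) and 3.82% (20 weeks) of all genes were in NT liver and 15.2% at either time in nodules. These comparisons of one time share their no DEN rats and are not independent of each other. With libraries scaled by their totals in place of TMM, the median of all genes itself moved to between 0.19 and 0.57 in these comparisons, and all changes here are relative to the TMM centre. The split of all calls moved with it, from 2507 higher of 3592 to 4839 higher of 5133 in NT liver at 14 weeks, and from 2706 of 4425 to 5921 of 6343 in nodules at that time. At 8 weeks it moved from 1781 of 2344 to 2483 of 2669 and at 20 weeks from 1543 of 1957 to 2525 of 2689 in NT liver, and from 2642 of 4347 to 5427 of 5904 in nodules at 20 weeks.

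**Figure D1:**
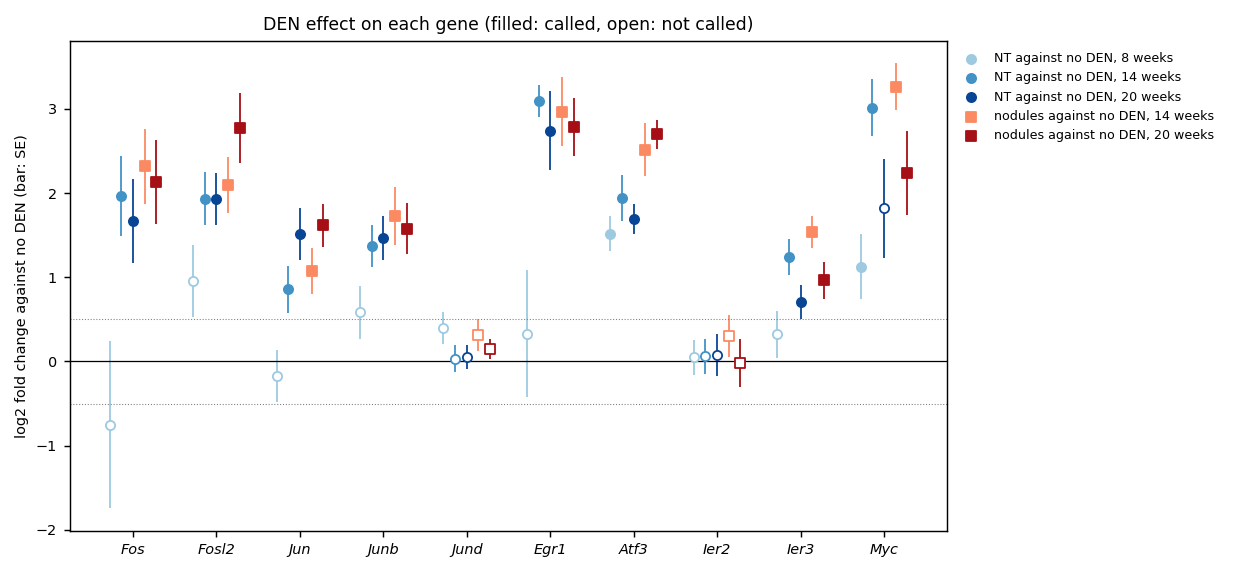
Log2 fold change against no DEN liver of the same age (vertical axis, bars: SE) for the 10 genes (horizontal axis), with circles for NT liver at 8, 14 and 20 weeks, squares for nodules at 14 and 20 weeks, filled symbols for called genes and dotted lines at 0.5 in size. Egr1 lies between 2.74 and 3.09 in the 4 comparisons at 14 and 20 weeks and at 0.33 at 8 weeks, while Ier2 and Jund stay within 0.40 of 0.

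Fos, the founding member of the Fos family, was low in all libraries. In the no DEN rats it was at 0.475, 0.0883, 0.158 and 6.30 CPM at 8 weeks, at 0.503, 0.247, 0.255 and 0.103 CPM at 14 weeks and at 0.585, 0.384, 0.243 and 0.172 CPM at 20 weeks. One untreated rat at 8 weeks, H08, thus stood far above all other libraries without DEN. NT liver held 0.970, 1.20, 0.901 and 1.11 CPM at 8 weeks, 1.32, 0.962, 1.62 and 0.471 CPM at 14 weeks and 0.672, 0.909, 0.748 and 2.11 CPM at 20 weeks, and all 3 NT groups had means close to 1 CPM. The log2 fold change at 14 weeks was 1.96 (SE 0.47, edgeR adjusted p = 0.0052), with 1 NT rat below the highest no DEN rat, and at 20 weeks it was 1.67 (SE 0.50, adjusted p = 0.030), with no overlap. In nodules Fos ranged from 0.662 to 2.27 CPM (median 1.20) at 14 weeks and from 0.687 to 5.63 CPM (median 1.07) at 20 weeks, with log2 fold changes of 2.32 (SE 0.45, adjusted p = 0.0025) and 2.13 (SE 0.50, adjusted p = 0.0052). The call in NT liver was lost at 14 weeks when all 8 groups were fitted together (adjusted p = 0.060), and at 20 weeks in that fit and without rat H14, H15 or H16 (adjusted p up to 0.15). At 8 weeks the log2 fold change was -0.75 (SE 0.99, adjusted p = 0.59) with rat H08 and 2.09 (SE 0.43, adjusted p = 0.0058) without it.

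Fosl2 encodes Fra-2, a Fos family protein whose mRNA is induced later and held longer than that of Fos. No DEN livers had 0.0432 to 0.530 CPM at 8 weeks, 0.412 to 0.873 CPM at 14 weeks and 0.340 to 0.822 CPM at 20 weeks. NT livers had 0.679, 0.584, 0.834 and 0.716 CPM at 8 weeks, 1.44, 3.53, 2.90 and 2.19 CPM at 14 weeks and 1.88, 1.28, 2.32 and 2.11 CPM at 20 weeks. Each NT group lay above the no DEN rats of its time, although the lowest no DEN rat at 8 weeks rests on 1 count. The log2 fold changes were 0.96 (SE 0.43, edgeR adjusted p = 0.10) at 8 weeks, 1.94 (SE 0.32, adjusted p = 0.00049) at 14 weeks and 1.93 (SE 0.31, adjusted p = 0.0019) at 20 weeks. Nodules ranged from 1.26 to 4.66 CPM (median 2.71) at 14 weeks and from 1.65 to 6.64 CPM (median 3.11) at 20 weeks, 2.09 (SE 0.33) and 2.78 (SE 0.42) above no DEN liver on the log2 scale. In the order of the group means, NT liver at 20 weeks and NT liver at 8 weeks were the one pair of neighbours whose rats did not overlap.

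The Jun family behaved unevenly. Jun, the main partner of Fos proteins, was at 27.8 to 83.4 CPM in no DEN liver at 8 weeks, 17.1 to 47.7 CPM at 14 weeks and 22.1 to 43.9 CPM at 20 weeks. In NT liver it was at 34.2 to 55.5 CPM, 47.5 to 68.6 CPM and 49.9 to 109 CPM at the same times, and in nodules at 51.1 to 88.1 CPM and 56.2 to 119 CPM. The lowest NT rat at 14 weeks (47.5 CPM) was level with the highest no DEN rat (47.7 CPM), whereas the groups did not overlap at 20 weeks. The log2 fold change in NT liver was -0.17 (SE 0.31, edgeR adjusted p = 0.70) at 8 weeks, 0.86 (SE 0.28, adjusted p = 0.030) at 14 weeks and 1.51 (SE 0.31, adjusted p = 0.011) at 20 weeks. The call at 14 weeks failed in 7 of 14 alternatives, among them the fits without rat F06, H11, H12, H21 or H22 (adjusted p up to 0.083). Nodules were 1.07 (SE 0.27, adjusted p = 0.010) and 1.62 (SE 0.26, adjusted p = 0.00076) above no DEN liver at 14 and 20 weeks.

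Junb, a Jun family protein that often restrains Jun, was at 17.5, 7.51, 12.9 and 26.1 CPM in no DEN liver at 8 weeks, at 10.5 to 13.04 CPM at 14 weeks and at 9.42 to 20.5 CPM at 20 weeks. NT liver held 25.6, 29.8, 21.5 and 19.5 CPM at 8 weeks, 44.5, 23.02, 35.1 and 20.2 CPM at 14 weeks and 53.4, 32.6, 36.4 and 28.3 CPM at 20 weeks. No NT rat overlapped with the no DEN rats at 14 and 20 weeks, and the log2 fold changes there were 1.37 (SE 0.25, edgeR adjusted p = 0.0018) and 1.47 (SE 0.26, adjusted p = 0.0050). At 8 weeks it was 0.58 (SE 0.31, adjusted p = 0.18), and 0.91 (SE 0.26, adjusted p = 0.025) without rat H08. Nodules spanned 18.5 to 90.1 CPM at 14 weeks and 22.5 to 72.4 CPM at 20 weeks, with log2 fold changes of 1.73 (SE 0.34) and 1.58 (SE 0.30). In each of the 5 groups of DEN-treated tissue, the libraries of the rats numbered F had the highest Junb. Without these rats the log2 fold changes were 1.12 (SE 0.18) and 1.26 (SE 0.22) in NT liver and 1.33 (SE 0.23) and 1.35 (SE 0.28) in nodules, and all 4 remained called.

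Jund, the Jun family member that is expressed in resting cells, was not called in the main analysis of any comparison. Its group means lay between 62.2 CPM (no DEN, 14 weeks) and 86.6 CPM (NT, 8 weeks), and the rats of each DEN-treated group overlapped with the no DEN rats of their time. The log2 fold change in NT liver was 0.40 (SE 0.19, edgeR adjusted p = 0.13) at 8 weeks, 0.03 (SE 0.16) at 14 weeks and 0.05 (SE 0.14) at 20 weeks, and in nodules it was 0.31 (SE 0.19) and 0.15 (SE 0.11). Ier2, a small nuclear protein of the early response, was not called either, with group means of 26.2 to 37.7 CPM. Its log2 fold changes were 0.05 (SE 0.21), 0.06 (SE 0.21) and 0.08 (SE 0.25) in NT liver at 8, 14 and 20 weeks and 0.31 (SE 0.25) and -0.02 (SE 0.28) in nodules. The SE given here is derived from the F statistic and is unreliable for values near 0, and that of DESeq2 was 0.13 to 0.20 for Jund and 0.20 to 0.29 for Ier2 over these comparisons. These calls depend on the setting. Jund in NT liver at 8 weeks was called without rat F10 (0.54, SE 0.16, adjusted p = 0.036). Scaled by library totals, Jund in nodules was called at both times (0.88 and 0.66) and in NT liver at 8 weeks (0.60), and Ier2 in nodules at 14 weeks (0.87), where the median of all genes was itself between 0.19 and 0.57.

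**Figure D2:**
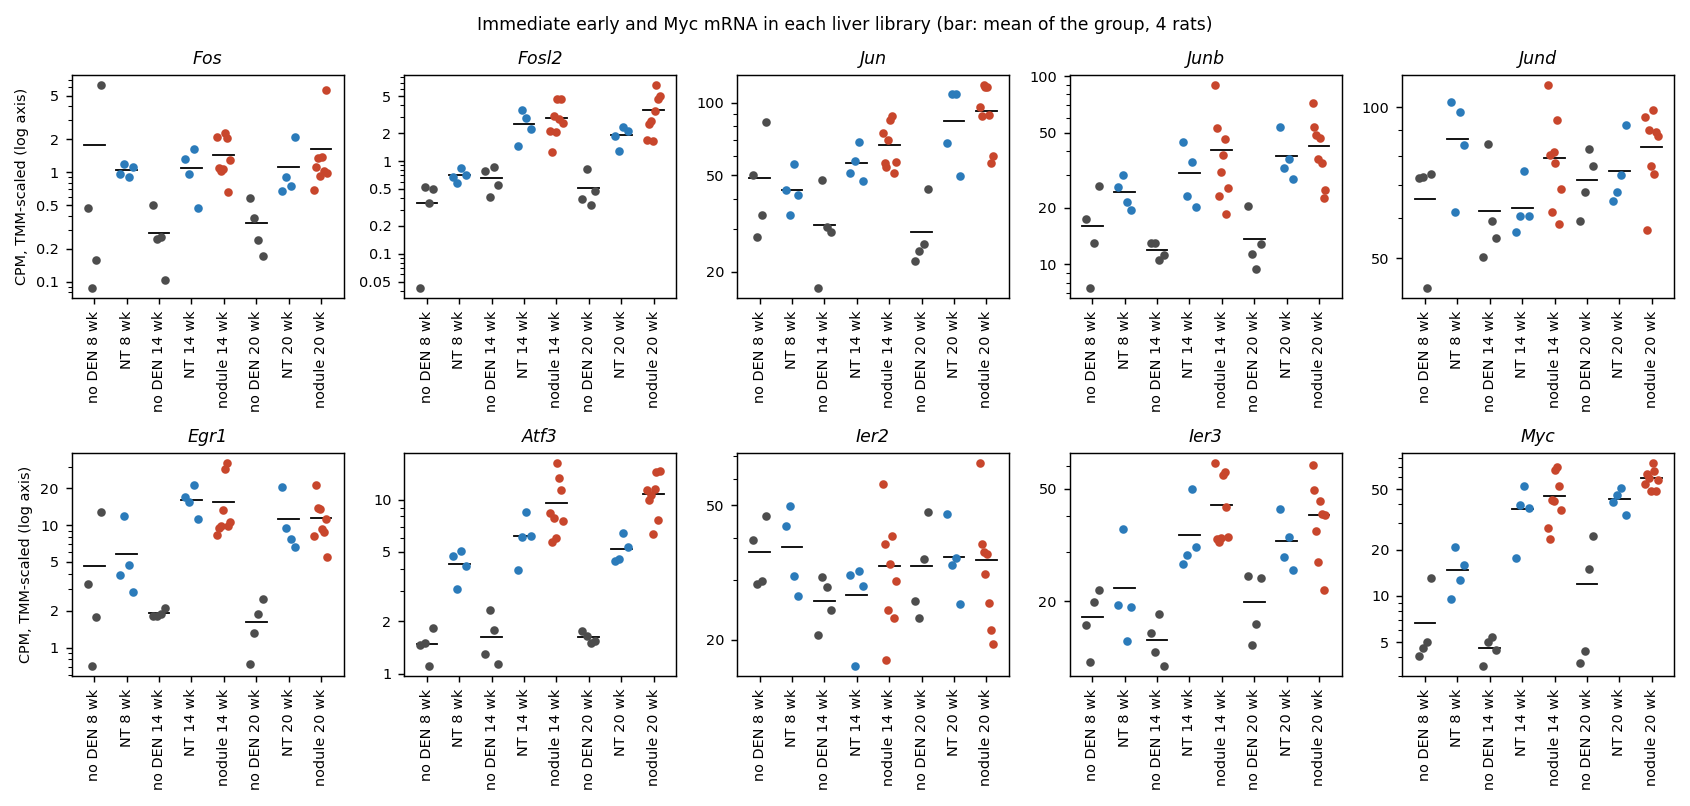
TMM-scaled CPM on a log axis (vertical) of each of the 10 genes in the 8 groups (horizontal), with 1 point for each of the 40 libraries (grey: no DEN, blue: NT liver, red: nodules) and a bar for the mean of 4 rats. Egr1, Atf3, Fosl2, Junb and Myc separate no DEN liver from NT liver and nodules at 14 and 20 weeks. Jund and Ier2 overlap at all times, and 1 untreated rat at 8 weeks stands out for Fos at 6.30 CPM.

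Egr1 is a zinc finger factor of the early growth response, and its promoter window above held both CArG boxes. Of the 10 genes it had the largest fold in NT liver at 14 and 20 weeks. The no DEN rats were at 3.28, 0.706, 1.78 and 12.8 CPM at 8 weeks, at 1.80, 1.81, 1.89 and 2.09 CPM at 14 weeks and at 0.731, 1.32, 1.89 and 2.49 CPM at 20 weeks. NT liver was at 3.95, 11.9, 4.71 and 2.83 CPM at 8 weeks, at 16.995, 15.4, 21.04 and 11.1 CPM at 14 weeks and at 20.6, 9.52, 7.66 and 6.67 CPM at 20 weeks. All NT rats lay above all no DEN rats at the last 2 times but not at 8 weeks. The log2 fold changes were 3.09 (SE 0.19, edgeR adjusted p = 2.4e-06) at 14 weeks, 2.74 (SE 0.47, adjusted p = 0.0044) at 20 weeks and 0.33 (SE 0.76, adjusted p = 0.76) at 8 weeks, and the last was 1.59 (SE 0.59, adjusted p = 0.068) without rat H08, -0.27 (SE 0.83) without rat F10, -0.029 (SE 0.64) without rat H06 and -0.28 (SE 1.13) without the rats numbered F. In nodules Egr1 ranged from 8.23 to 32.1 CPM (median 10.2) at 14 weeks and from 5.47 to 21.1 CPM (median 10.2) at 20 weeks, with log2 fold changes of 2.97 (SE 0.41) and 2.79 (SE 0.35). The group means ran from 1.61 CPM (no DEN, 20 weeks) to 16.1 CPM (NT, 14 weeks), and each group overlapped with its neighbour in that order.

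Atf3, a stress-induced factor that pairs with Jun proteins, rose at all 3 times. It was at 1.47, 1.501, 1.11 and 1.84 CPM in no DEN liver at 8 weeks, at 1.29, 2.31, 1.78 and 1.13 CPM at 14 weeks and at 1.76, 1.64, 1.51 and 1.55 CPM at 20 weeks. NT liver had 4.72, 3.08, 5.07 and 4.15 CPM at 8 weeks, 3.96, 6.06, 8.53 and 6.21 CPM at 14 weeks and 4.44, 4.57, 6.43 and 5.34 CPM at 20 weeks, above all no DEN rats of the same age. The log2 fold changes were 1.52 (SE 0.21, edgeR adjusted p = 0.00046), 1.94 (SE 0.27, adjusted p = 0.00023) and 1.69 (SE 0.18, adjusted p = 0.00032), and Atf3 was called at all 3 times in each alternative. Nodules had 5.73 to 16.2 CPM (median 8.09) at 14 weeks and 6.31 to 14.6 CPM (median 11.002) at 20 weeks, 2.52 (SE 0.31, adjusted p = 0.00021) and 2.698 (SE 0.17, adjusted p = 1e-05) above no DEN liver. Rat H08, which stood apart for Fos and Egr1, had 1.84 CPM of Atf3, the highest of its group by a small margin.

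Ier3, an early response protein that protects cells from death and modulates ERK and NF-kB signaling, rose less. It was at 12.2 to 21.98 CPM, 11.8 to 18 CPM and 14.0 to 24.7 CPM in no DEN liver at 8, 14 and 20 weeks, and at 14.5 to 36.0 CPM, 27.0 to 49.9 CPM and 25.8 to 42.2 CPM in NT liver. The groups overlapped at 8 weeks (log2 fold change 0.32, SE 0.28, edgeR adjusted p = 0.40) and were apart at 14 weeks (1.24, SE 0.22, adjusted p = 0.0013) and at 20 weeks (0.70, SE 0.20, adjusted p = 0.029). The call at 20 weeks was lost without rat F03, H14, H15 or H26 (adjusted p up to 0.085). In nodules Ier3 was at 32.5 to 61.6 CPM and 22.02 to 60.8 CPM, with log2 fold changes of 1.54 (SE 0.19, adjusted p = 0.00022) and 0.96 (SE 0.22, adjusted p = 0.0048).

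Myc, the growth-promoting transcription factor, was at 4.06, 4.55, 5.01 and 13.1 CPM in no DEN liver at 8 weeks, at 3.48, 5.03, 5.38 and 4.42 CPM at 14 weeks and at 3.66, 4.39, 14.9 and 24.7 CPM at 20 weeks. The untreated groups at 8 and 20 weeks thus held 1 and 2 rats well above the others. NT liver was at 9.51, 20.9, 12.7 and 15.8 CPM at 8 weeks, at 17.7, 39.5, 52.4 and 37.4 CPM at 14 weeks and at 41.0, 45.9, 50.9 and 33.6 CPM at 20 weeks. Nodules ranged from 23.6 to 69.2 CPM (median 42.2) at 14 weeks and from 48.4 to 74.0 CPM (median 58.1) at 20 weeks. The log2 fold change in NT liver was 1.13 (SE 0.39, edgeR adjusted p = 0.048) at 8 weeks, with overlap through rat H08, and 3.02 (SE 0.34, adjusted p = 0.00018) at 14 weeks, with none. At 20 weeks it was 1.82 (SE 0.59, adjusted p = 0.060), although all NT rats lay above all no DEN rats, and it was called by DESeq2 (1.80, adjusted p = 0.016), with all 8 groups in 1 fit (1.81, adjusted p = 0.0026), with library totals (2.07, adjusted p = 0.030) and without rat H16 (2.44, SE 0.50, adjusted p = 0.022). The call at 8 weeks was lost in 9 of 14 alternatives (adjusted p up to 0.15), among them the fits without rat F10, H05, H06, H07, H17 or H18, and without rat H08 the log2 fold change was 1.68 (SE 0.26, adjusted p = 0.0018). In nodules Myc was 3.26 (SE 0.28, adjusted p = 3.7e-05) and 2.24 (SE 0.50, adjusted p = 0.0042) above no DEN liver at 14 and 20 weeks. The value at 20 weeks ranged from 1.93 to 2.88 over 16 alternatives.

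Other genes of the same pathways were read from lists, and their counts stand beside the shares of all genes called. These were 16.5%, 22.8% and 14.3% higher and 5.21%, 9.85% and 3.82% lower in NT liver at 8, 14 and 20 weeks, and 23.9% and 23.6% higher and 15.2% lower in nodules at 14 and 20 weeks. Of the AP-1 subunits and partners outside the 10 genes, Maff, a small Maf protein, moved most. Its lowest and highest values were 0.387 and 0.829 CPM in the no DEN libraries, 1.60 and 2.57 CPM in NT liver at 8 weeks, 5.03 and 13.9 CPM at 14 weeks and 6.62 and 10.6 CPM at 20 weeks, and 6.92 and 23.5 CPM over all nodules. The log2 fold changes of Maff were 1.77 (SE 0.27), 3.89 (SE 0.36) and 4.01 (SE 0.24) in NT liver and 4.33 (SE 0.27) and 5.10 (SE 0.25) in nodules. In NT liver 2 of 10 tested members of this list rose and 1 (Atf2) fell at 8 weeks, 5 of 9 rose at 14 weeks and 4 of 8 at 20 weeks. In nodules 4 of 10 rose at 14 weeks and 5 of 9 at 20 weeks. The small Maf genes Mafg and Mafk rose in NT liver at 14 weeks (0.67 and 0.65) and in nodules at 20 weeks (0.82 and 0.77).

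Of the other immediate early genes, 9 of 30 rose and 1 (Zfp36l1, named after its value was seen) fell in NT liver at 8 weeks, 14 of 30 rose at 14 weeks and 8 of 30 at 20 weeks, with list medians of 0.33, 0.62 and 0.37. In nodules 16 of 32 rose and 2 fell at 14 weeks, and 15 of 32 rose and 2 fell at 20 weeks. At 8 weeks, when most of the 10 genes were not called, the largest changes of this list were those of Dusp2 (1.89, SE 0.33), a phosphatase of ERK, Ier5l (1.46, SE 0.29), the antiproliferative gene Btg2 (1.27, SE 0.12) and the nuclear receptor Nr4a1 (1.20, SE 0.20). Nr4a1 remained higher at 14 weeks (1.67, SE 0.35) and 20 weeks (1.22, SE 0.28). Klf6, a zinc finger factor, was 1.45 (SE 0.20) higher at 20 weeks in NT liver and 1.77 (SE 0.17) higher in nodules. Among those that fell in nodules, Errfi1, a feedback inhibitor of the EGF receptor, was lower at 14 weeks (-0.95, SE 0.27) and 20 weeks (-1.08, SE 0.29), and it was picked after its values were seen.

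Of 18 upstream kinases and factors tested, 2 rose and 1 fell in NT liver at 8 weeks, 3 rose and 3 fell at 14 weeks and 2 rose at 20 weeks, and in nodules 2 rose and 3 fell at either time. The kinase gene Rps6ka3 (RSK2) rose at 14 weeks in NT liver (1.46, SE 0.15) and in nodules (1.40, SE 0.21), as did Elk3 (1.23 and 1.36), a cofactor of serum response factor, while Crem (-0.94 and -1.10), a CRE binding factor, fell in both. Mapk9, which encodes JNK2, fell in nodules at 14 weeks (-0.87, SE 0.08). In the Myc network, the Max partner gene Mxd3 rose in NT liver at 8 weeks (2.55, SE 0.30) and 14 weeks (2.27, SE 0.38) and in nodules at 14 weeks (2.47, SE 0.26). At 14 weeks NT liver and nodules had 3 of 10 and 3 of 10 members higher and 1 and 2 lower. The counts at 8 and 20 weeks in NT liver were 2 of 10 higher and none lower at both, and in nodules at 20 weeks 2 were higher and 3 lower.

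Of 28 Myc target genes of ribosome production and growth, 3 rose and 1 fell in NT liver at 8 weeks, 6 rose and 1 fell at 14 weeks and 2 rose and 1 fell at 20 weeks. In nodules 9 rose and 1 fell at 14 weeks and 13 rose and 1 fell at 20 weeks, with list medians of 0.28 and 0.44. The gene that fell was Ldha (lactate dehydrogenase A) in all 5 comparisons, by 1.25 on the log2 scale in NT liver at 14 weeks and by 1.45 in nodules. Ccnd2 (cyclin D2) was 1.49 (SE 0.19) and 1.43 (SE 0.43) higher at 14 weeks in NT liver and nodules, and the nucleolar protein genes Nop56 (0.72 and 0.83) and Nop58 (0.70 and 0.75) rose with it. Tfrc, the transferrin receptor gene, was 1.23 (SE 0.27) and 1.25 (SE 0.26) higher at that time.

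Lists of genes that handling, anesthesia or time of day can move were read beside these, again against 14.3% to 23.9% of all genes called higher and 3.82% to 15.2% called lower. Of 13 clock genes, 2 were called lower in NT liver at 8 weeks, 1 higher and 2 lower at 14 weeks and 1 higher and 1 lower at 20 weeks, and in nodules 1 was higher and 5 lower at both times. Of the heat shock genes, 1 of 9 fell at 8 weeks, 1 of 9 (Hspa1a, 1.87, SE 0.49, a gene with a near-identical copy) rose at 14 weeks and 1 of 9 fell at 20 weeks in NT liver, and in nodules 4 of 10 rose and 2 fell at 14 weeks and 2 rose and 2 fell at 20 weeks. Of 10 glucocorticoid-induced genes, none rose and 2 fell at 8 weeks, 4 rose and 2 fell at 14 weeks, and none was called at 20 weeks in NT liver, while 3 rose and 3 fell and 2 rose and 4 fell in nodules. Of 8 hypoxia-induced genes, 2, 2 and 3 rose and 1 fell in NT liver at each time, and 3 rose and 1 fell in nodules at both. The part of sampling in the changes of the 10 genes was not tested, and the time of day of sampling is not given in the sources used here.

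Nodules were next compared with NT liver of the same time. None of the 10 genes was called at 14 or 20 weeks by edgeR, and neither was any other gene (0%), although 1348 and 2767 genes, of which 0 and 3 were among the 10, had an unadjusted p of at most 0.05. DESeq2 called 35 and 902 genes, with 0 and 1 (Atf3) of the 10. Atf3 was the nearest to the threshold, with a log2 fold change of 1.02 (SE 0.17, adjusted p = 0.095) at 20 weeks and 0.61 (SE 0.29, adjusted p = 0.44) at 14 weeks. It was called at 20 weeks without rat H25 (1.07, SE 0.18, adjusted p = 0.030). With the rat as a block, which takes NT liver and nodules of one animal as a pair, Atf3 was called at 20 weeks (1.02, SE 0.10, adjusted p = 2e-05), and so was Fosl2 (0.84, SE 0.17, adjusted p = 0.0038, against 0.86, SE 0.34, adjusted p = 0.16 without the block). In that fit 14.7% of all genes were called. Myc (0.43, SE 0.08, adjusted p = 0.0021) and Ier3 (0.25, SE 0.07, adjusted p = 0.022) stayed below the fold threshold with the block. At 14 weeks the block called none of the 10 and no other gene.

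Rat by rat, Atf3 at 20 weeks was at 4.44, 4.57, 6.43 and 5.34 CPM in the NT liver of rats F03, H25, H26 and H28. Their nodules held 11.4 and 9.97 CPM, 10.6 and 6.31 CPM, 11.5 and 14.5 CPM, and 7.64 and 14.6 CPM. Both nodules were thus above NT liver in 4 of 4 rats, and the mean of the nodules was 1.85- to 2.41-fold the NT level. Myc at 20 weeks was also above NT liver in both nodules of 4 of 4 rats, at ratios of 1.17 to 1.58, and so was Ier3 at 14 weeks, at ratios of 1.13 to 1.75. Egr1 at 14 weeks went the other way in 3 of 4 rats, with nodules at 0.522, 0.752 and 0.915 of the NT level in F06, H21 and H23 and at 1.45 in H22. This difference of Egr1 was not called (log2 fold change -0.09, SE 0.39, edgeR adjusted p = 0.91).

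**Figure D3:**
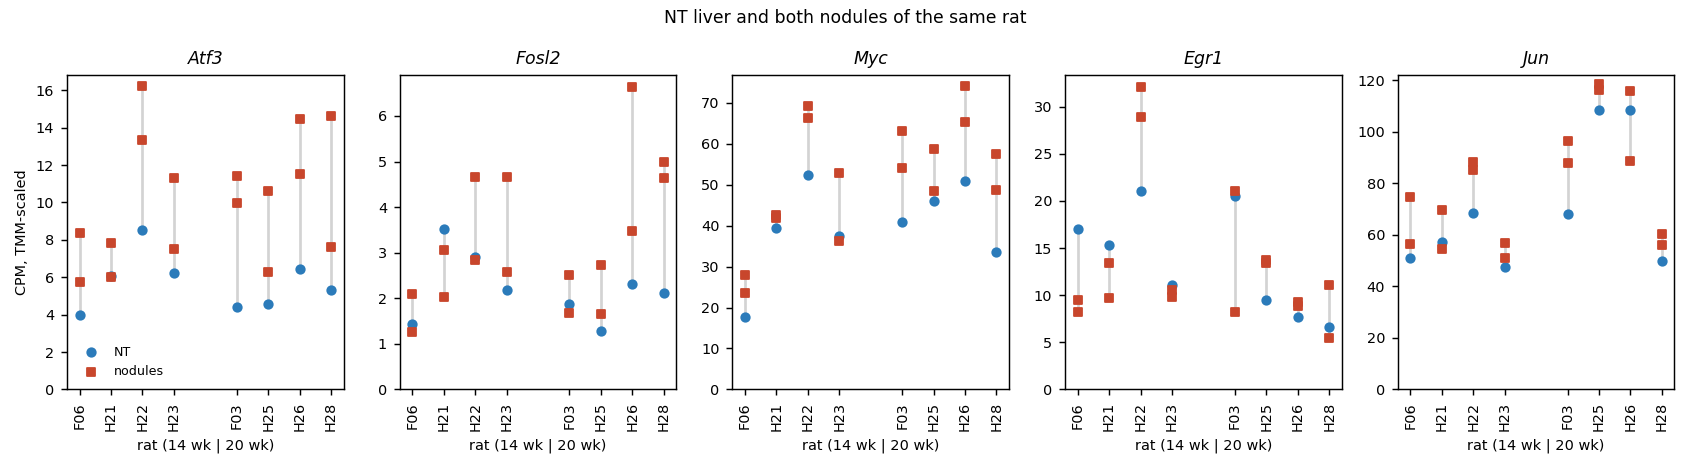
TMM-scaled CPM (vertical axes, starting at 0) of Atf3, Fosl2, Myc, Egr1 and Jun in NT liver (circles) and in both nodules (squares) of each rat, with rats of 14 weeks on the left and of 20 weeks on the right of each panel and a grey line joining the samples of a rat. Both nodules lie above NT liver for Atf3 and Myc in 4 of 4 rats at 20 weeks, while Egr1 falls on either side.

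The 2 nodules of a rat differed by a median of 1.10-fold for Jun, 1.13-fold for Egr1, 1.17-fold for Myc and 1.25-fold for Ier3, and by 1.54-fold for Fos and 1.64-fold for Fosl2, the genes with the fewest counts. The widest gap was that of Fos in rat H28, whose nodules held 5.63 and 0.982 CPM, a 5.73-fold difference, beside 2.11 CPM in its NT liver. Egr1 in rat F03 differed 2.57-fold between nodules (8.21 and 21.1 CPM). The largest gaps of the other genes were between 1.33-fold (Jun) and 1.91-fold (Atf3 and Fosl2).

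Whether the DEN effect in NT liver changed with time was tested as an interaction. From 8 to 14 weeks only Myc was called among the 10, with an effect 1.89 larger on the log2 scale at 14 weeks (SE 0.55, edgeR adjusted p = 0.048), when 4.16% of all genes were called in that direction. The larger changes of Egr1 (2.76, SE 0.91, adjusted p = 0.073) and Fos (2.72, SE 1.35, adjusted p = 0.22) were not called, although Egr1 was by DESeq2 (adjusted p = 0.034) and without rat F10 (adjusted p = 0.044) or H06 (adjusted p = 0.037). Without rat H08 they were 1.49 (SE 0.65) for Egr1, -0.14 (SE 0.73) for Fos and 1.33 (SE 0.45, adjusted p = 0.090) for Myc, and the Myc call failed in 16 of 22 alternatives, 14 of them leaving out a single rat (any but F06 and H05). From 14 weeks to 20 weeks, after 6 weeks without DEN, none of the 10 was called for a change of its effect in NT liver (0.738% of all genes called) or in nodules (0.0862%). The largest differences there were those of Myc, at -1.19 (SE 0.70, adjusted p = 0.41) in NT liver and -1.03 (SE 0.62, adjusted p = 1.00) in nodules, where the no DEN group at 20 weeks held rats H15 and H16. The unadjusted p was at most 0.05 for 1912 and 378 genes and for none of the 10, and DESeq2 called 382 and 29 genes and none of the 10.

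Untreated liver was also compared between ages. None of the 9 genes tested was called between 8 and 14 weeks or between 14 and 20 weeks, and neither was any other gene (0%), with Fos below the count filter in both. Unadjusted p-values of at most 0.05 were found for 1038 and 670 genes, among them 1 and 0 of the 9, and DESeq2 called 20 and 18 genes. The largest differences were those of Egr1 between 8 and 14 weeks (-1.27, SE 0.84, edgeR adjusted p = 0.66), which was 0.00 without rat H08, and of Myc between 14 and 20 weeks (1.41, SE 0.66, adjusted p = 0.81), which was 0.77 (SE 0.54) without rat H16.

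Among the 4 untreated rats at 8 weeks, H08 was the highest for 9 of the 10 genes. Fos, Egr1, Myc, Jun and Junb (5 of 10) were at least 2-fold above the mean of the other 3 rats in H08, on CPM with 0.1 added, compared with 0.893% of 10634 genes. H08 was singled out by its values of these same genes, so the count describes that animal and is no test. Fos was at 6.30 CPM (151 counts) in H08 and at 0.0883 to 0.475 CPM (2 to 11 counts) in the others, Egr1 at 12.8 CPM and 0.706 to 3.28 CPM, Myc at 13.1 CPM and 4.06 to 5.01 CPM, Jun at 83.4 CPM and 27.8 to 50.3 CPM, and Junb at 26.1 CPM and 7.51 to 17.5 CPM. Of 29 other immediate early genes, 2 passed that limit, the growth arrest genes Gadd45g (84.7 CPM beside a mean of 31.9) and Gadd45a (28.9 CPM beside 14.4), and so did the Fos family gene Fosb (0.709 CPM beside 0.0576). None of 9 heat shock, 10 glucocorticoid-induced, 8 hypoxia-induced or 13 clock genes did. In the other 3 rats none of the 10 genes passed that limit. Their reference mean held H08, so for the genes high in H08 this comparison could hardly show a difference. Among themselves these 3 rats ranged from 0.0883 to 0.475 CPM for Fos and from 0.706 to 3.28 CPM for Egr1. Without H08, 4 of the 10 genes (Fos, Junb, Atf3 and Myc) were called higher in NT liver at 8 weeks in place of 2, beside 16% of all genes. Since H08 is an untreated rat, leaving it out had to raise the fold changes of the genes high in it. The added calls are therefore no separate evidence of a DEN effect.

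**Figure D4:**
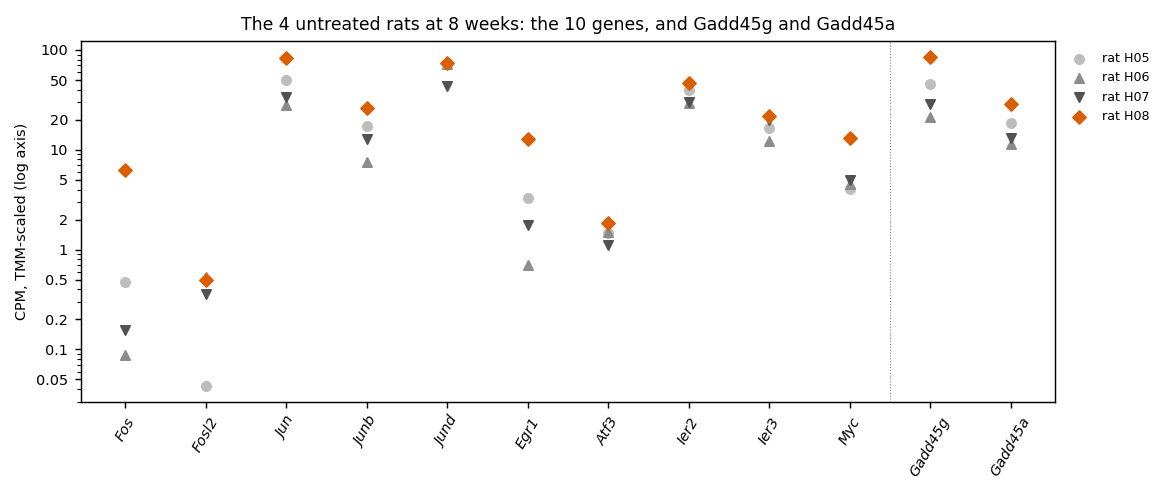
TMM-scaled CPM on a log axis (vertical) of the 10 genes, and of Gadd45g and Gadd45a to the right of the dotted line, in the 4 untreated rats sampled at 8 weeks (1 symbol for each rat). Rat H08 (diamonds) is at 6.30 CPM for Fos, where the other 3 rats lie below 0.5 CPM, and is close to them for Atf3 and Ier3.

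The 10 genes differed in how closely they varied together from rat to rat. Counting error, largest for Fos and Fosl2, weakens such correlations. Over 24 rats (nodules left out), with the mean of the group taken from each log2 CPM value, the highest Pearson r among the 45 pairs was that of Atf3 with Jund (0.72, and 0.71 without rat H08). Egr1 had an r of 0.65 with Ier2 and 0.64 with Junb, which were 0.65 and 0.48 without H08. Fos and Egr1 had an r of 0.56 that was 0.05 without H08, and so rested on that animal. By the same measure, the genes most like Fos among 9983 genes were Ahnak (0.83), Cyyr1 (0.81), Zcrb1 (0.73), Lilrb4 (0.71) and Pde6d (0.71), whose r without H08 was 0.64, 0.51, 0.45, 0.52 and 0.66. Those most like Myc were Cish (0.81), Gadd45a (0.78), Exnef (0.75), Foxa2 (0.74) and Rbpms (0.73), at 0.76, 0.74, 0.73, 0.68 and 0.66 without H08. Rats of a group share treatment and time, and libraries differ in depth, so these values are descriptions.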

How the data were processed

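Messenger RNA of bulk rat liver and tumor nodules was measured by stranded paired-end RNA-seq in 40 libraries. The deposited values were raw counts of read pairs per gene, made by the authors with STAR 2.7.1a (rn6) and HTSeq (reverse strand, pairs placed at several sites dropped). Versions and build are from the submitters' processing notes. Groups and rats were taken from the labels, and the counts of a rat's 2 nodules were added. Genes were filtered with filterByExpr, scaled by TMM and tested in edgeR 4.0.16 by its 2-sided quasi-likelihood method with robust fitting (R 4.3.3), using only the groups compared, with Benjamini-Hochberg adjustment. SE is the size of the log2 fold change divided by the square root of F, and is unreliable for a log2 fold change near 0. The 5 summary lines of HTSeq stayed out of library sizes. Alternatives were DESeq2 1.42.0, RLE scaling, no filter, all groups in 1 fit, a stricter threshold, single nodules, leaving out each rat or the rats numbered F, and a block for the rat. Scaling by library totals was added after seeing the data. NT liver and nodules are paired by animal, and their deviations from the group means had an r of 0.37 to 0.55 within rats (rat H21 was closer to another rat, at 0.43). The 10 genes and all lists were chosen with earlier results of these data known. All 10 genes are named, and from each other list at most the 5 called genes with the largest change, or a gene that explains a result, and for Fos and Myc the 5 genes of at least 1 CPM on average with the highest r over 24 rats. The tests were checked on simulated data. Intervals from counts alone are not given, since the libraries carry no molecular identifiers. Some listed genes, such as Fbxw7 and Krt7, were not analysed here. One result among the AP-1 partners in nodules is not reported here.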

Additional observations from a re-analysis of the deposited data

Results flagged for a closer look

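In 6 of 80 groups of values examined (10 genes in 8 groups of libraries), 1 library lay far from the others by Dixon's test, where chance gives about 1 in 20. That rate holds for independent, normally distributed values. Here CPM was used without logs, and the nodule groups hold 2 libraries of each rat, so the rate is only nominal. In no DEN liver at 8 weeks, rat H08 was the highest for Fos (6.30 CPM) and for Myc (13.1 CPM), and rat H07 was the lowest for Jund (43.6 CPM, beside 72.4 to 73.7 CPM in the other 3). At 20 weeks, rat H28 was the highest for Fos in NT liver (2.11 CPM) and in 1 of its nodules (5.63 CPM), and 1 nodule of rat F03 was the highest for Ier2 (66.7 CPM). That nodule also had the highest share of read pairs at several places (16.3%). The DEN effect on Myc in NT liver differed between 14 and 8 weeks by 1.89 on the log2 scale in a test of the difference itself (edgeR adjusted p = 0.048, 8 rats at each time). The call was lost in 16 of 22 alternatives, among them the fit without rat H08 (1.33, adjusted p = 0.090).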

How the results depend on the processing

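The number of the 10 genes called ranged as follows when 1 rat was left out. In NT liver against no DEN liver they were 1 to 4 at 8 weeks, 7 to 8 at 14 weeks and 5 to 7 at 20 weeks. In nodules against no DEN liver they were 8 at both times. In nodules against NT liver they were 0 at 14 weeks and 0 to 1 at 20 weeks, and for the change of the NT effect from 8 to 14 weeks 0 to 2. The 8-week count of 2 was 1 with RLE scaling, without the filter, without the rats numbered F and at a fold change of at least 2 with an adjusted p of at most 0.01, and the stricter threshold gave 4 in NT liver at 20 weeks. In nodules against NT liver at 20 weeks, 1 was called (Atf3) by DESeq2, with all 8 groups in 1 fit and with nodule T1 alone, and 2 with the replicate block by rat. The block changed no other call. The count of 1 for the change of the NT effect from 8 to 14 weeks was 2 with DESeq2 and without the rats numbered F, 0 without the filter and with all 8 groups in 1 fit, and 3 with library totals. A change of sign was met in 113 alternative fits, over 36 of the 118 log2 fold changes, and none of the 36 was called in the main analysis. Ranges below are over fits that left out 1 rat. In NT liver against no DEN liver at 8 weeks, the sign changed for Fos (-1.15 to 2.09, without H08), Jun (-0.37 to 0.21, and 0.029 with library totals), Egr1 (-0.27 to 1.59, and -0.28 without the rats numbered F), Ier2 (-0.11 to 0.18, and -0.31 without the rats numbered F) and Ier3 (-0.00094 to 0.47, and -0.058 without the rats numbered F). At 14 weeks it changed for Jund (-0.066 to 0.21) and Ier2 (-0.038 to 0.24, and -0.020 without the rats numbered F), and at 20 weeks for Jund (-0.078 to 0.12) and Ier2 (-0.084 to 0.29, and -0.084 without the rats numbered F). In nodules against no DEN liver at 20 weeks it changed for Ier2 (-0.26 to 0.21, 0.45 with library totals and 0.21 with T1 alone). In nodules against NT liver at 14 weeks it changed for Fosl2 (-0.0071 to 0.45, and -0.21 with T2 alone) and Egr1 (-0.52 to 0.13, 0.017 with library totals, 0.13 without the rats numbered F and 0.016 with T2 alone). At 20 weeks it changed with T2 alone for Fos (-0.11), Junb (-0.0047) and Jund (-0.019), for Egr1 (-0.11 to 0.33, and -0.082 with T1 alone) and for Ier2 (0.15 with library totals and 0.16 with T1 alone). In no DEN liver it changed between 8 and 14 weeks for Jund (-0.24 to 0.022), Atf3 (-0.054 to 0.29) and Myc (-0.71 to 0.020), and between 14 and 20 weeks for Jun (-0.35 to 0.19), Junb (-0.071 to 0.33), Egr1 (-0.52 to 0.032) and Atf3 (-0.14 to 0.21, and -0.00057 with all 8 groups in 1 fit). For the change of the NT effect from 8 to 14 weeks it changed for Fos (-0.14 to 3.18) and Ier2 (-0.12 to 0.17, and -0.020 with all 8 groups in 1 fit). From 14 to 20 weeks it changed for Fos (-0.79 to 0.082), Fosl2 (-0.18 to 0.31, -0.019 with DESeq2, -0.011 with RLE scaling, -0.21 with library totals and -0.17 without the rats numbered F), Junb (-0.10 to 0.36, and -0.11 with library totals), Jund (-0.15 to 0.12, and -0.18 with library totals) and Ier2 (-0.16 to 0.26, -0.18 with library totals and -0.067 without the rats numbered F). For the change of the nodule effect it changed for Fos (-0.71 to 0.19, 0.042 without the rats numbered F and 0.29 with T1 alone), Junb (-0.40 to 0.28, and 0.020 without the rats numbered F), Jund (0.062 with T1 alone), Egr1 (-0.43 to 0.39) and Atf3 (-0.033 to 0.45, and -0.074 with T1 alone). The causes were not tested. The count of all genes called moved by over 1.5 times under 52 alternatives. The stricter threshold gave 855, 1676 and 565 in NT liver (main counts 2344, 3592 and 1957) and 2117 and 1946 in nodules (4425 and 4347). In place of 0 in nodules against NT liver, DESeq2 gave 35 at 14 weeks and 902 at 20 weeks, and at 20 weeks 1096 were called with all 8 groups in 1 fit, 218 with T1 alone, 445 without H25 and 1693 with the block. In place of 0 in no DEN liver, DESeq2 gave 20 (8 to 14 weeks) and 18 (14 to 20 weeks), no filter gave 2 and 2, all 8 groups in 1 fit gave 1 between 8 and 14 weeks, and leaving out 1 rat gave 0 to 117 (without H07) and 0 to 2. For the change of the NT effect from 8 to 14 weeks, 1005 became 1529 with DESeq2, 151 with all 8 groups in 1 fit, 1852 with library totals and 533 (without H21) to 1870 (without H17) when 1 rat was left out. From 14 to 20 weeks, 83 became 382 with DESeq2, 41 with all 8 groups in 1 fit, 144 with library totals, 182 without the rats numbered F and 31 (without H22) to 408 (without H26) when 1 rat was left out. For the change of the nodule effect, 10 became 29 with DESeq2, 16 with all 8 groups in 1 fit, 5 with T1 alone and 6 to 15 when 1 rat was left out. Depth limits Fos and Fosl2, which rest on few counts.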
